A study of Mus musculus with 6 samples.

Results

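The genes described here are 28 genes of cholesterol and fatty acid synthesis, chosen by symbol for their place in the pathway and not for their values. They comprise 6 genes of the mevalonate arm, 11 of the sterol arm, 5 regulators of SREBP and 6 of fatty acid synthesis. All 28 were found among the 35458 Ensembl gene identifiers of the deposited files. The libraries came from splenic CD8+ T cells of mice. The 3 control libraries carried Cd4cre, a transgene that expresses Cre recombinase in developing T cells. The 3 knockout (KO) libraries carried the same Cd4cre together with floxed Glut10 alleles (labelled Cd4creGlut10fl/fl). Glut10 is the protein made by Slc2a10, a hexose transporter. The labels used here state neither the age nor the sex of the mice, nor if each library is from an animal of its own. If not, p-values here measure only library-to-library spread, part or all of it perhaps technical. Lymphoma appears in the title of the series, but no label tells if these animals had tumours. The question asked of these genes was whether T cells without Glut10 express the lipid synthesis pathways at another level.

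Cells make cholesterol from acetyl-CoA. The mevalonate arm builds isoprenoid units and joins them into farnesyl pyrophosphate, and the sterol arm turns this into squalene, closes the rings and trims lanosterol to cholesterol. Fatty acid synthesis starts from the same acetyl-CoA. Both are controlled by the transcription factors Srebf1 and Srebf2, which the escort protein Scap carries out of the endoplasmic reticulum when sterols are scarce and which the Insig proteins hold back when sterols are plentiful. T cells are known to raise these pathways when activated, because dividing cells need membrane lipid.

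SREBP proteins bind sterol regulatory elements (SRE) in promoters, usually beside CCAAT boxes that bind NF-Y. The 250 bases before the RefSeq start (build GRCm38.p6) were found for 23 of the 28 genes and searched on both strands for the SRE letters TCACNCCAC, for CCAAT and for the E-box CACGTG. Hmgcs1 is shown because it held the only TCACNCCAC match among these genes, and Dhcr7, Msmo1 and Hsd17b7 because they had the largest differences of the sterol arm. All are written 5′ to 3′ on the strand of the gene, with the matches in capitals (ATTGG is CCAAT read on the other strand).
Hmgcs1: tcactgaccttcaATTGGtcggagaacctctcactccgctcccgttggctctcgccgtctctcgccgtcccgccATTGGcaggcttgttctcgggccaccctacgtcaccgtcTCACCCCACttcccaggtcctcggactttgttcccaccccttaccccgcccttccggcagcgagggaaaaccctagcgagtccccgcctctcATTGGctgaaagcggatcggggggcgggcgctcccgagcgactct
Dhcr7: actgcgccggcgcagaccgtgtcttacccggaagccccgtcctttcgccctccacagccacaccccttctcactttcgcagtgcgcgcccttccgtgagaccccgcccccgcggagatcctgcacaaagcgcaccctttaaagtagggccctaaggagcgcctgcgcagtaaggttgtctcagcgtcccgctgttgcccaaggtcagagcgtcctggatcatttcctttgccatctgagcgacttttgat
Msmo1: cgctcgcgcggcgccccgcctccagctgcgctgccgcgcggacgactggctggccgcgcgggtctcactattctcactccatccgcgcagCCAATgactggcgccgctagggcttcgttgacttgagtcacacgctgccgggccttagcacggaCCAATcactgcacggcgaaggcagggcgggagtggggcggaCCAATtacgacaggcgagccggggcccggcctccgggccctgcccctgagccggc
Hsd17b7: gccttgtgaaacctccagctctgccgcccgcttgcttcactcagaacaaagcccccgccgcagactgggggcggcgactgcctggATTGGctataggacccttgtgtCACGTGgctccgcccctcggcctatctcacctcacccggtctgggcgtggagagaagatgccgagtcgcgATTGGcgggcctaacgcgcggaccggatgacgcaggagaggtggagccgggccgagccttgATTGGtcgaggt
These windows are chr13:119690101-119690350 on the plus strand for Hmgcs1, chr7:143822917-143823166 on the plus strand for Dhcr7, chr8:64733579-64733828 on the minus strand for Msmo1 and chr1:169969206-169969455 on the minus strand for Hsd17b7. The SRE match of Hmgcs1 began 137 bases before the start and lay among 3 CCAAT boxes. Msmo1 and Hsd17b7 also held 3 CCAAT boxes each, Hsd17b7 held an E-box, and the Dhcr7 window held none of these letters. CCAAT was present in 18 of the 23 promoters (78.3%), against 33.8% of all 32851 promoters of the RefSeq table and 36.9% of 9020 promoters, 1 for each tested gene with an entry. TCACNCCAC was present in 1 of 23, against 1.05% of all promoters. The E-box stood in 3 of 23 (13.0%), those of Hsd17b7, Insig1 and Sc5d, against 6.02% of all promoters and 8.49% of those of tested genes. None of the motifs overlapped another in the printed windows. A match describes the letters only.

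The values are FPKM, fragments scaled by gene length and library size. The length that fits the values counts all annotated exon bases of a gene. It can far exceed the longest coding transcript, so levels compare only roughly between genes. The library totals implied by the values were 11840640, 15020132 and 15036282 fragments in control libraries 1 to 3, against 3420291, 14683394 and 3004540 in KO libraries 1 to 3. The implied reads summed over genes exceeded these totals by 8.31% to 12.3%. The totals are therefore those that scale the values and need not be the true fragment counts. The libraries differed in more than their labels. Slc2a10 itself had 4, 2 and 2 implied reads in controls and 0 in each KO library, which allows up to 3 reads there, so its loss was not detectable at this depth. The 11 neutrophil markers summed to 16512 and 29097 FPKM in control 2 and 3, against 343 in control 1 and 58.1 to 680 in the KO libraries. The 7 erythroid markers summed to 2146 and 988 FPKM in control 2 and 3 and to 3.34 to 32.4 in the other 4 libraries. The 11 T cell markers, Cd3 and Cd8 chains among them, were present throughout and summed to 413 and 322 FPKM in control 2 and 3 and to 1262 to 2104 in the other 4. Macrophage markers (12) summed to 2071 to 4546 FPKM in controls, against 329 to 2173 in the KO libraries, with Lyz2 making up most of each sum, and B cell markers (7) to 16.0 to 48.4 and 53.1 to 77.8. The mean log2(FPKM + 1) of the macrophage list was 4.31 to 4.92 in controls, 4.65 in KO 1, 1.92 in KO 2 and 5.70 in KO 3. C1qa, C1qb, C1qc, Vcam1, Spic and Marco were highest in KO 3. The rest of the list peaked elsewhere, Adgre1 and Csf1r in control 1, Cd68 in control 2, Slc40a1 and Lyz2 in control 3 and Mertk in KO 1. Of 986 olfactory and vomeronasal receptor models, 18.0% and 19.7% reached 1 FPKM in KO 1 and KO 3, and at most 1.93% in the other 4 libraries. Xist, expressed from the inactive X of females, measured 19.8, 22.0 and 40.5 FPKM in controls, against 0.473, 0.262 and 0.0928 in the KO libraries, and the Y-linked Ddx3y 1.82, 0.166 and 0 FPKM against 29.5, 20.6 and 19.7. Genotype and sex can therefore not be told apart in any comparison here, and in bulk RNA neither can fewer cells of a type and less RNA per cell.

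No lipid synthesis gene passed the test between the genotypes, and the group means of most lay close together. Of the 28, 27 reached 1 FPKM in at least 3 libraries and were tested, and 0 of them passed limma at an adjusted p of 0.05, as did 0% of all 13956 genes tested. The smallest limma adjusted p among them was 0.417. limma-voom on the implied reads also called 0 of them. At an unadjusted limma p under 0.05 there were 2 genes, Dhcr7 and Scd1, both with higher estimates in KO (7.41% of the 27, against 5.33% of all tested genes), and 0 with lower ones (against 6.46%). Every KO library lay above every control for 2 genes, Dhcr7 and Scd1 (7.41%, against 6.7% of all tested genes). Scd1 was tested because it reached 1 FPKM in the KO libraries, where it is high, so its place in both counts is a description only. Every KO library lay below every control for 3, Msmo1, Hsd17b7 and Sqle (11.1%, against 9.44%). These shares are near those of all genes. Group means differed by less than 1.5-fold for 21 of the 27 genes.

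The median difference of the 27 genes, KO minus control on the log2(FPKM + 1) scale, was -0.07, against 0.10 for all genes tested. The scale understates changes of genes near or below 1 FPKM. Estimates were lower in KO for 17 genes and higher for 10, and after quantile normalization lower for 22 and higher for 5. Of all tested genes, 43.1% had lower estimates, and 57.8% after quantile normalization. That scaling moved the median of all genes to -0.12 and that of the 27 genes to -0.30. By role, the median was -0.00 for the 5 tested genes of the mevalonate arm, -0.25 for the 11 of the sterol arm, -0.03 for the 5 regulators and -0.01 for the 6 of fatty acid synthesis. Without control 2 and 3 these became -0.08, -0.10, -0.30 and -0.43, and without KO 1 and 3 they became 0.10, -0.04, 0.03 and 0.47. The fatty acid genes therefore had medians of opposite sign in those reduced comparisons, each of which has a single library in 1 group.

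**Figure D1:**
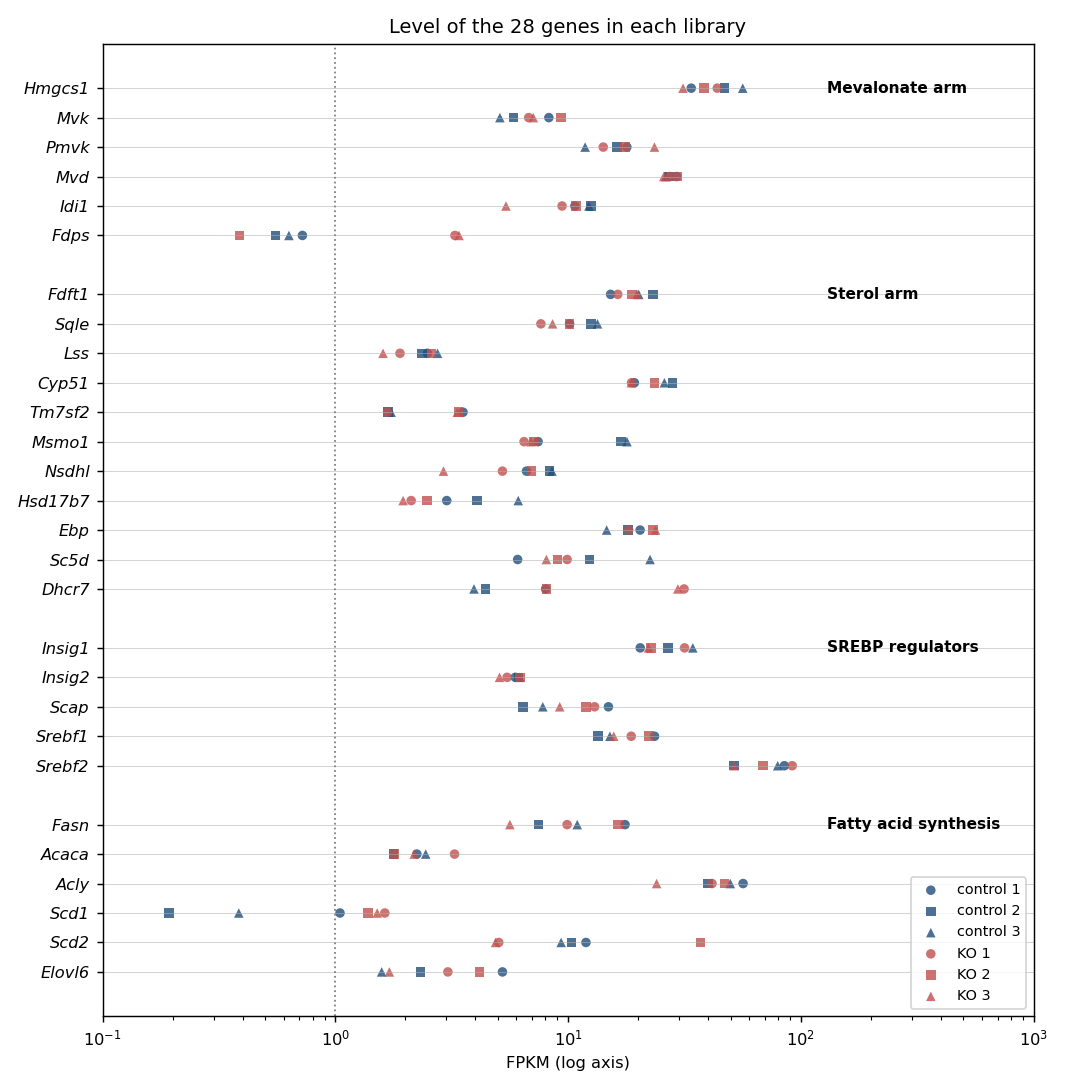
FPKM (log axis) of each of the 28 genes, grouped by role, in the 3 control (blue) and 3 KO (red) libraries, with a dotted line at 1 FPKM. The levels of most genes overlap between groups, while Dhcr7 and Fdps stand apart in KO 1 and KO 3 and Scd2 in KO 2.

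Levels spanned a wide range among the genes and kept to a narrow one for many of them. Srebf2 had the highest mean, 71.4 FPKM over the 6 libraries, followed by Acly at 43.1 and Hmgcs1 at 41.7. Lss and Acaca, both at 2.28, Fdps at 1.49 and Scd1 at 1.03 FPKM were the lowest. The exon lengths of Lss, Acaca and Fdps are 10787, 17074 and 4208 bases, against 4667, 9513 and 1382 in the longest coding transcript. Their place in this order may therefore be too low. For Scd1 the lengths are close, at 4892 and 4832 bases. Mvd was the steadiest gene, with its highest library 1.15 times its lowest, and Insig2 came next at 1.22 times. Fdps, Scd1, Dhcr7 and Scd2 varied most, by 8.76, 8.47, 7.99 and 7.59 times.

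In the mevalonate arm no gene separated the groups. Hmgcs1, the synthase that makes HMG-CoA and whose TCACNCCAC match is printed above, measured 33.8, 46.95 and 56.3 FPKM in control libraries 1 to 3, against 43.8, 38.3 and 31.2 in KO libraries 1 to 3. The KO values lay across the range of the controls and below it in KO 3. The log2 difference was -0.25 (SE 0.26), and 0.14 without control 2 and 3. Mvk, the kinase that phosphorylates mevalonate, measured 6.40 ± 1.66 FPKM in controls, against 7.74 ± 1.40 in KO cells (SD, n = 3 each, as for all means below). Pmvk, which adds the next phosphate, measured 15.3 ± 3.13 and 18.4 ± 4.73 FPKM. Mvd, the decarboxylase that makes isopentenyl pyrophosphate, measured 27.6 ± 1.51 and 27.6 ± 1.90 FPKM, a difference of -0.00 with a limma 95% interval of -0.43 to 0.42.

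Idi1, the isomerase that follows, measured 10.7, 12.6 and 12.3 FPKM in controls, against 9.43, 10.8 and 5.41 in KO libraries 1 to 3. Only KO 3 stood clearly lower, and the log2 difference of -0.47 (SE 0.30) was -0.21 without it. Fdps, which makes farnesyl pyrophosphate, was the 1 gene not tested, since it reached 1 FPKM in only KO 1 and KO 3. It measured 0.723, 0.554 and 0.632 FPKM in controls, against 3.27, 0.388 and 3.40 in KO libraries 1 to 3, or 36, 35 and 40 implied reads against 47, 24 and 43. The value of KO 2 lay below the controls and those of KO 1 and 3 above them, the 2 libraries with the largest share of sensory receptor models at 1 FPKM. The part of that signal in Fdps was not tested. Copies at 95% identity or more in 6 other gene models cover 91.4% of its longest coding transcript. Among these models, Gm43738 also overlaps Fdps on the same strand, over 26.7% of the exon bases of Fdps. Reads may be lost to these models, so the level of Fdps is uncertain. The copy Gm3571 measured between 4.62 and 11.6 FPKM, above Fdps in every library. The other genes with the largest such shares were Idi1 (33.3% of the transcript), Acaca (64.3%, in Gm5182) and Fdft1 (54.7%, in Gm6781 and the neighbour Ctsb). The exons of Ctsb overlap those of Fdft1 on the other strand. Smaller shares were found for Scap (18.9%), Hmgcs1 (16.2%), Elovl6 (15.2%), Scd2 (11.4%), Insig1 (7.0%), Lss (5.6%), Cyp51 (4.2%) and Srebf1 (2.5%). Those of Scap, Hmgcs1, Lss, Cyp51 and Srebf1 each come from a single gene model whose exons overlap theirs on the other strand. They may thus be overlaps and not copies elsewhere. Gm48574, among the models found for Idi1, overlaps it in the same way.

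In the sterol arm, 3 of the 11 genes lay below every control in all KO libraries and 1 above, against 9.44% and 6.7% of all tested genes. Dhcr7, the reductase of the last step to cholesterol, measured 8.01, 4.43 and 3.94 FPKM in control libraries 1 to 3, against 31.5, 8.08 and 29.6 in KO libraries 1 to 3. KO 1 and KO 3 were far above all other libraries, while KO 2 and control 1 differed by less than counting error (intervals of 7.49 to 8.70 and 7.36 to 8.71 FPKM, 95% exact Poisson). The means were 5.46 ± 2.22 and 23.1 ± 13.0 FPKM, 4.22-fold higher in KO. The log2 difference of 1.74 (SE 0.56) did not pass (limma adjusted p = 0.417). With control 1 as the lone control it was 1.21, and with KO 2 as the lone KO library 0.54.

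Leaving out KO 2 made Dhcr7 the 1 gene of the 27 to pass, with a log2 difference of 2.34 (limma adjusted p = 0.00571), in a fit that called 13% of all genes. Leaving out any other single library gave 0 of the 27. Its transcript has no copy at 95% identity elsewhere and no overlapping gene model, and its promoter window printed above held none of the searched letters. Thrsp and Gpam, lipogenic genes named here after their values were seen, were also highest in KO 1 and KO 3, with KO 2 within or below the range of the controls. With KO 2 left out, the remaining KO libraries lay above every control for 27% of all tested genes. Scd2 and Slc25a1, also fatty acid genes, lay below every control in both KO 1 and KO 3. KO 1 and KO 3 are also the libraries with the fewest fragments and with 18.0% and 19.7% of sensory receptor models at 1 FPKM, and the part of this in Dhcr7, Thrsp and Gpam was not tested. Thrsp, a small protein that promotes fatty acid synthesis, measured 1.20, 0.0608 and 0.304 FPKM in controls, against 9.62, 0.0622 and 10.95 in KO libraries 1 to 3. Gpam, which starts glycerolipid synthesis, measured 2.42, 2.08 and 2.31 FPKM and 8.70, 1.46 and 8.69.

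Msmo1, the oxidase that removes methyl groups from the sterol ring, measured 7.44, 16.9 and 17.9 FPKM in control libraries 1 to 3, against 6.47, 7.15 and 6.93 in KO libraries 1 to 3. Control 2 and 3 were high, and control 1 lay just above the KO libraries. The means were 14.1 ± 5.78 and 6.85 ± 0.346 FPKM, 2.06-fold lower in KO, with a log2 difference of -0.85 (SE 0.36, limma adjusted p = 0.417). Without control 2 and 3, the libraries with the high neutrophil and erythroid sums, it was -0.10, and the part of those cells in it was not tested. Hsd17b7, a reductase that works with Msmo1, measured 3.01, 4.07 and 6.11 FPKM and 2.12, 2.48 and 1.96. Control 3 was highest and the 3 KO libraries lowest, 2.01-fold lower in mean. Its log2 difference was -0.72 (SE 0.32, limma adjusted p = 0.417), and -0.34 without control 2 and 3.

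Sqle, the epoxidase that commits squalene to sterols and a rate-limiting step, measured 10.2, 12.5 and 13.4 FPKM in controls, against 7.64, 10.1 and 8.58 in the KO libraries. KO 2 and control 1 differed by less than counting error, with intervals of 9.45 to 10.8 and 9.40 to 10.96 FPKM. The log2 difference was -0.41 (SE 0.23, limma adjusted p = 0.432). Nsdhl, a dehydrogenase that works with Msmo1 and Hsd17b7, measured 6.63, 8.33 and 8.53 FPKM and 5.23, 6.97 and 2.92. KO 2 lay above control 1, and KO 3, at 25 implied reads, was lowest. Nsdhl lies on the X chromosome, and the part of the sex-linked difference between the groups in it was not tested.

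**Figure D2:**
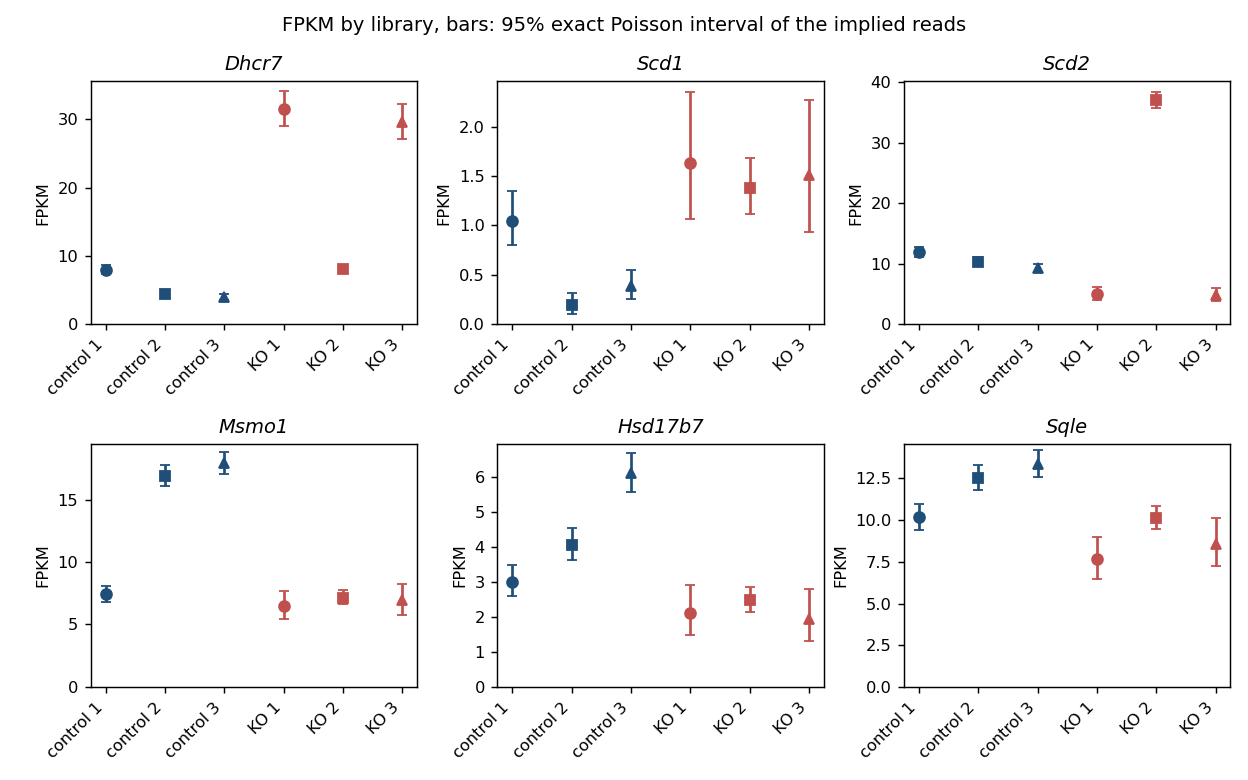
FPKM in each library (blue control, red KO) of the 5 genes whose groups do not overlap (Dhcr7, Scd1, Msmo1, Hsd17b7, Sqle) and of Scd2, with bars for the 95% exact Poisson interval of the implied reads. Control 1 is the control nearest to the KO libraries for all 5, and KO 2 stands alone for Scd2.

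Sc5d, the desaturase ahead of Dhcr7, measured 6.07, 12.4 and 22.5 FPKM in control libraries 1 to 3, against 9.91, 9.03 and 8.07 in the KO libraries. The controls spanned both sides of the KO values, and the log2 difference of -0.39 became 0.50 without control 2 and 3. Cyp51, the lanosterol demethylase, measured 19.3, 28.1 and 25.9 FPKM and 18.7, 23.5 and 18.7. It too was highest in control 2 and 3, with a difference of -0.25, and 0.06 without them. Fdft1, which joins farnesyl units into squalene, measured 19.5 ± 4.03 and 18.3 ± 1.77 FPKM. Lss, the cyclase that closes the rings, measured 2.53 ± 0.199 and 2.03 ± 0.505 FPKM.

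Tm7sf2, a sterol reductase, measured 2.32 ± 1.06 FPKM in controls, against 2.80 ± 0.973 in KO cells, and 12.1% of its exon bases are shared with Vps51 on the same strand. Ebp, the sterol isomerase, measured 17.7 ± 2.89 and 21.7 ± 3.03 FPKM, and is also on the X chromosome. The differences of these genes were within the spread of the libraries, and their limma adjusted p lay above 0.5.

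The 5 SREBP regulators overlapped between the groups in every case. Srebf2, the main regulator of sterol synthesis, measured 85.0, 51.6 and 79.6 FPKM in controls, against 91.8, 68.7 and 51.8 in KO libraries 1 to 3. Both groups held high and low libraries over nearly the same range, and the log2 difference was -0.03 (95% interval -0.76 to 0.70). Srebf1, which favours fatty acid genes, measured 23.5, 13.5 and 15.1 FPKM and 18.7, 22.3 and 15.7, a difference of 0.14 (-0.53 to 0.81). Scap, the sterol-sensing escort, measured 14.9, 6.42 and 7.79 FPKM and 13.0, 11.9 and 9.21. Control 2 and 3 were lowest for both Srebf1 and Scap. The Scap difference of 0.28 (-0.57 to 1.12) was -0.37 without those libraries.

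Insig1, a sterol-dependent retention protein and itself a target of SREBP, measured 20.4, 26.9 and 34.4 FPKM in controls, against 31.7, 22.8 and 22.2 in the KO libraries. The difference was -0.08 (-0.72 to 0.57). Its relative Insig2 measured 5.93, 6.13 and 6.20 FPKM and 5.47, 6.22 and 5.08, a difference of -0.11 (-0.68 to 0.46). The intervals of all 5 reach well to both sides of 0, so equal levels were not shown.

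In fatty acid synthesis the desaturases differed most between libraries. Scd1, which places the double bond in stearic acid, measured 1.05, 0.193 and 0.385 FPKM in control libraries 1 to 3, against 1.63, 1.38 and 1.51 in the KO libraries. Control 2 and 3 were low, and the interval of control 1 (0.806 to 1.35 FPKM) overlapped those of all KO libraries, 2 of which rest on 27 and 22 reads. It reached 1 FPKM in control 1 and the 3 KO libraries. Its place among the tested genes rests on the KO libraries, where it is high, so its difference is given as a description. The mean was 2.78-fold higher in KO, with a log2 difference of 0.74 (SE 0.30, limma adjusted p = 0.417), and 0.29 without control 2 and 3. Its relative Scd2 measured 11.9, 10.3 and 9.34 FPKM and 5.04, 37.1 and 4.88. KO 1 and KO 3 were below all controls and KO 2 far above them, so the log2 difference was -0.05 with all libraries, -0.95 without KO 2 and 1.73 without KO 1 and 3. A copy of Scd1 at 95% identity or more covers 11.4% of the Scd2 transcript, so part of their reads may be shared.

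Fasn, the synthase that builds palmitate, measured 17.6, 7.47 and 10.95 FPKM in controls, against 9.91, 16.4 and 5.62 in KO libraries 1 to 3. Control 1 and KO 2 were the highest. Acly, which makes cytosolic acetyl-CoA from citrate, measured 56.5, 39.9 and 49.8 FPKM and 41.5, 46.9 and 24.0, with KO 3 lowest. Elovl6, which lengthens palmitate, measured 5.23, 2.32 and 1.58 FPKM and 3.05, 4.17 and 1.71, again with control 1 and KO 2 highest. Acaca, the carboxylase of the first committed step, measured 2.15 ± 0.342 and 2.41 ± 0.759 FPKM. The 12 proliferation markers summed to 198, 189 and 245 FPKM in controls, against 118, 345 and 71.8 in KO libraries 1 to 3. KO 2, where Scd2 and Fasn were high among the KO libraries, had the highest sum, and KO 3, where Fasn, Acly and Scd2 were lowest, had the lowest. Other values went the other way. Acaca was lower in KO 2, at 1.79 FPKM, than in KO 1 and KO 3. Control 1, highest of all libraries for Fasn and Acly, had a lower sum than control 3. The part of cell division in these values was not tested.

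**Figure D3:**
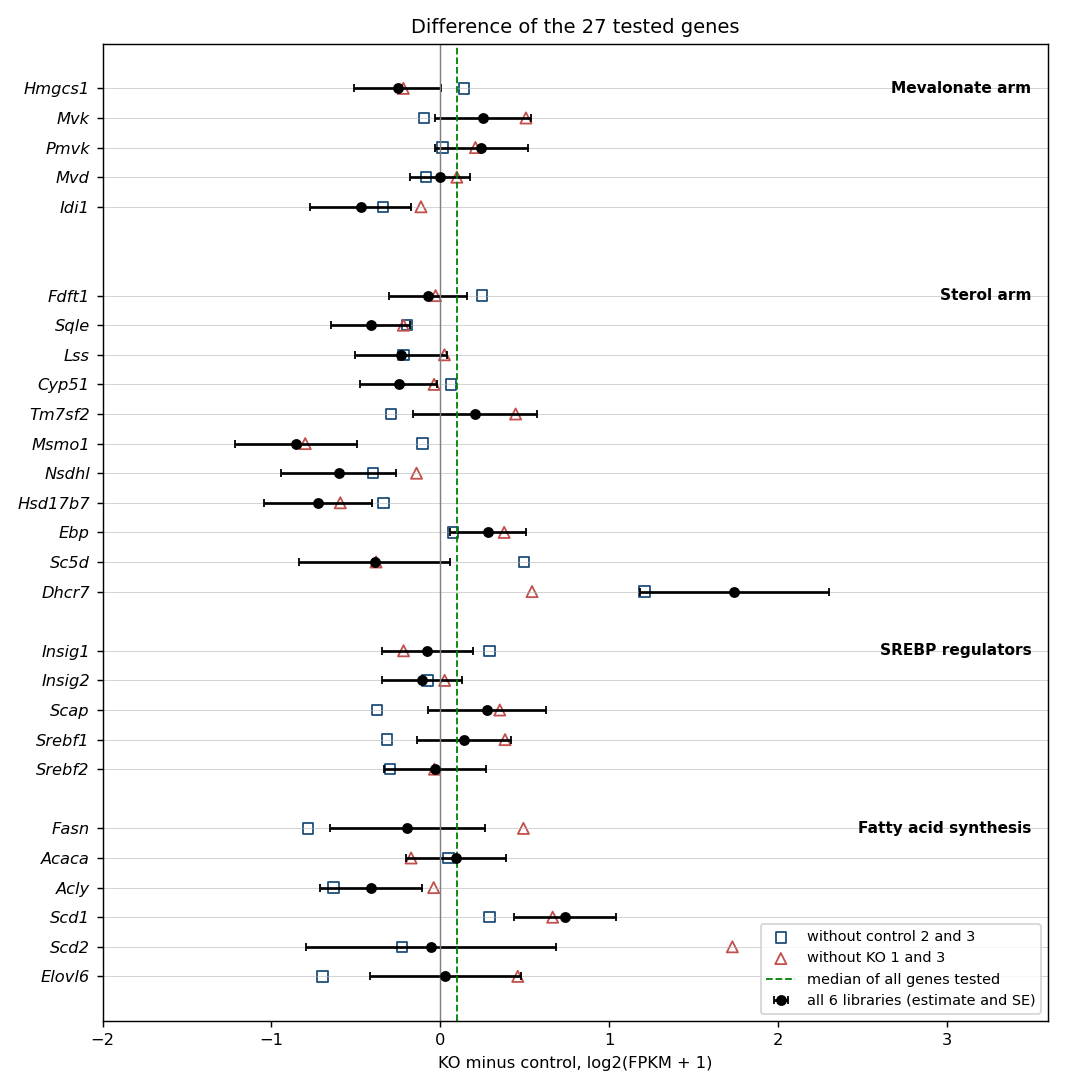
Difference between KO and control on the log2(FPKM + 1) scale for the 27 tested genes, as estimate and SE with all 6 libraries (black), without control 2 and 3 (blue squares) and without KO 1 and 3 (red triangles), with the median of all tested genes as a dashed line at 0.10. None passed with all libraries, Dhcr7 has the largest estimate at 1.74, and Scd2 spans -0.23 to 1.73 over the 3 fits.

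The mean log2(FPKM + 1) of the 6 mevalonate genes was 3.56 to 3.64 in controls and 3.64 to 3.78 in the KO libraries. It includes Fdps, which was not tested and is not in the median of that arm given above. Fdps alone deviated from its control mean by 1.38, -0.24 and 1.43 in KO libraries 1 to 3, and the mean without it was not computed. The mean of the sterol arm was 3.11 to 3.41 in controls and 3.13 to 3.21 in the KO libraries. The regulators spanned 4.02 to 4.45 and 4.06 to 4.47. The fatty acid genes spanned 2.57 to 3.19 and 2.39 to 3.34. The neutrophil list spanned 3.41 to 8.79 in controls and 1.62 to 4.03 in the KO libraries, wider than any role. The fatty acid genes varied more within controls than the proliferation list (3.86 to 4.28) and about as much as the macrophage list (4.31 to 4.92).

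**Figure D4:**
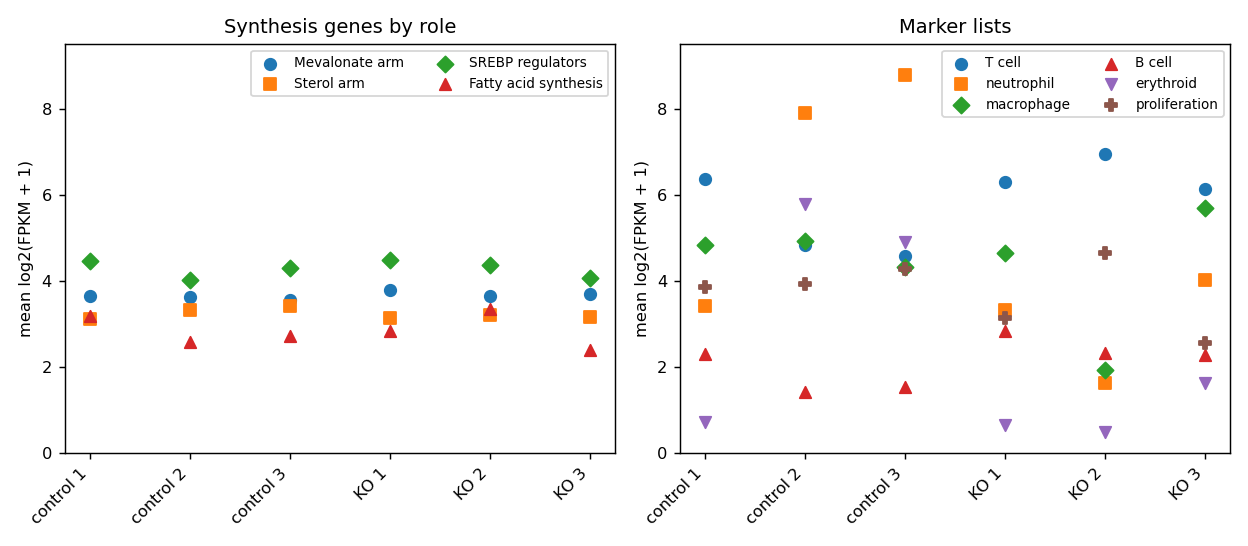
Mean log2(FPKM + 1) in each library of the 4 roles (left) and of the 6 marker lists (right). The roles stay between 2.39 and 4.47 in all libraries, while the neutrophil list reaches 7.89 and 8.79 in control 2 and 3.

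Other genes of lipid metabolism were described from 5 lists with 72 genes, and 0 of the tested ones passed limma over all genes. In the list of sterol uptake and remaining sterol steps, 11 of 12 genes were tested, 9 with lower estimates, and the median was -0.54. Without control 2 and 3 that median was -0.39, and without KO 1 and 3 it was -0.30, where the medians of all tested genes were -0.06 and 0.01. Of these 11, 4 lay below every control in all KO libraries, as did 9.44% of all tested genes, and 0 above (6.7%). Npc1, which exports cholesterol from lysosomes, measured 9.73, 26.1 and 33.9 FPKM in controls, against 6.62, 5.52 and 4.47 in the KO libraries. Every KO library was lower, and control 1 was nearest to them. The log2 difference was -1.74 (SE 0.47), and -0.73 without control 2 and 3. It passed without control 1 alone (-2.25, limma adjusted p = 0.0284), in a fit that called 2.6% of all genes. Lipa, the lysosomal lipase that frees cholesterol from esters, measured 81.0, 139 and 188 FPKM and 68.7, 23.6 and 80.6.

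In the list of sterol efflux and esters 10 of 11 genes were tested, 6 with higher and 4 with lower estimates (median 0.09), and 1 lay below every control (9.44% of all tested genes). The median turned to -0.17 without control 2 and 3, -0.37 without KO 1 and 3 and -0.075 after quantile normalization. That gene was Nceh1, a cholesterol ester hydrolase, at 11.8, 27.6 and 38.5 FPKM in controls, against 6.29, 4.72 and 10.3 in the KO libraries. Soat1, which esterifies cholesterol, measured 12.5, 33.8 and 42.6 FPKM and 11.05, 6.32 and 14.5. Both were highest in control 2 and 3. Abcg1, a sterol efflux transporter, had the opposite order, at 14.2, 5.52 and 4.22 FPKM and 14.2, 15.3 and 11.9, and its log2 difference of 0.87 became -0.05 without control 2 and 3.

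All 12 genes of SREBP processing and turnover were tested. Their median was -0.29, with 9 lower estimates, and 4 lay below every control (9.44% of all tested genes). With control 1 as the lone control the median was -0.14, and with KO 2 as the lone KO library -0.30. Erlin2, which helps degrade sterol-regulated proteins, measured 8.71, 9.13 and 10.7 FPKM in controls, against 7.67, 5.43 and 5.31 in the KO libraries. Prkaa1, a catalytic subunit of AMPK, measured 16.4 ± 1.32 and 11.96 ± 0.567 FPKM. The log2 differences were -0.57 for Erlin2 and -0.43 for Prkaa1, both with a limma adjusted p of 0.417. Prkaa1 kept a narrow range, -0.35 to -0.43, with all libraries and in both reduced comparisons.

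The 12 genes of the isoprenoid branch had a median of -0.01, with 7 lower and 5 higher estimates, 2 below and 1 above every control (9.44% and 6.7% of all tested genes). Its median became -0.36 without control 2 and 3. Dhdds and Nus1, subunits of the dolichol-making enzyme, measured 18.1 ± 3.55 and 11.8 ± 2.57 FPKM and 23.9 ± 5.44 and 16.7 ± 3.37. Pggt1b, a subunit of the geranylgeranyl transferase, measured 6.21 ± 1.38 and 3.66 ± 1.22 FPKM.

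Of 25 further fatty acid genes 22 were tested, 14 with lower and 8 with higher estimates (median -0.07), and 7 lay below every control (9.44% of all tested genes). The median was -0.22 in the comparison that omits control 2 and 3 and -0.33 in the one that omits KO 1 and 3. Acsl1, which activates long-chain fatty acids, measured 7.07, 7.42 and 11.9 FPKM in controls, against 2.12, 2.85 and 1.81 in the KO libraries. All KO libraries were well below all controls, including control 1, and the log2 difference was -1.57 (SE 0.31, limma adjusted p = 0.417). With control 1 as the lone control it was -1.32, with KO 2 as the lone KO library -1.31, and it passed without KO 2 (-1.69, limma adjusted p = 0.0165), in the fit that called 13% of all genes. Fads3, a member of the desaturase family, measured 1.06, 1.28 and 1.83 FPKM and 0.0894, 0.333 and 0 in the KO libraries. It reached 1 FPKM in the controls alone, where it is high. Its place among the tested genes and among the 7 below every control therefore rests on that difference, which is given as a description. On the log2 scale it was -1.07, and -2.85 with a pseudocount of 0.1. Acsl4, which prefers arachidonic acid and lies on the X chromosome, measured 17.3 ± 5.48 and 8.48 ± 3.02 FPKM, with a difference of -0.95 (SE 0.36).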

How the data were processed

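RNA of CD8+ T cells from 6 libraries, 3 control and 3 KO, was measured by RNA-seq. The authors deposited 1 FPKM value per gene and library, and this unit was read from the values, since the labels name none. Per the submitters' processing notes, the build was mm8 and the tools were HTSeq 0.6.0, Bowtie2 2.2.3 and HISAT2 (version 2), with no role or order given. The annotation, the strand setting and the step to FPKM are not given in the sources used here, so overlapping genes on opposite strands cannot be told apart. As the notes name another build, coordinates are given only for RefSeq promoters (GRCm38.p6).

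Symbols, gene types and exon lengths came from GENCODE M21, which holds 35358 of the 35458 identifiers. In each library, FPKM times exon length gave multiples of 1 common step (92.1% to 93.4% of values under 200 reads, within 0.02 read). The steps gave the totals and the implied reads, whole for 22 of the 28 genes and approximate for the rest. Intervals and floors (3 reads) cover counting error only.

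Genes with at least 1 FPKM in 3 libraries or more (13956) were tested on log2(FPKM + 1) with limma 3.58.1 (R 4.3.3, variance trend), group as the only term, Benjamini-Hochberg adjustment over all genes and a threshold of 0.05. The method was checked on simulated data. Copies were found with BLAST+ 2.17.0 on both strands (at least 95% identity over 100 bases), with overlapping gene models included. Fits that leave out libraries keep the same genes. A lone library is assumed to vary like the other group. Tables and plots used Python 3.11.15, pandas 2.3.3 and matplotlib 3.10.9.

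The genes, the lists and the settings, with the fits that omit control 2 and 3 or KO 1 and 3 among them, were chosen with earlier results of these data known. Values in every library are given for those of the 28 genes whose groups do not overlap, with a log2 difference of at least 1 or an unadjusted p under 0.1, for the SREBP genes and for some others chosen after their values were seen. From each other list up to 3 tested genes with the smallest p are named. Some of these are not reported here. All 160 list symbols matched, 1 by a synonym.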

Additional observations from a re-analysis of the deposited data

How the results depend on the processing

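Of the 27 genes tested, 10 kept their direction in all 14 other settings (Pmvk, Idi1, Sqle, Msmo1, Nsdhl, Hsd17b7, Ebp, Dhcr7, Acly and Scd1). So did 14 of the 15 other pathway genes chosen by the rule, Abcg1 being the exception. Those 15 were picked by the smallest p in the main fit on the same libraries, so this outcome was largely fixed in advance. The groups of Sqle, Msmo1, Hsd17b7, Dhcr7 and Scd1 do not overlap. Leaving out libraries or changing the pseudocount could therefore not turn their direction. Scd1 also entered the test through the KO libraries, where it is high, so its place here is a description only. The share of all tested genes that kept their direction was not computed. Leaving out 1 library moved the number of all genes called from 0 to between 0 and 1821, with 363 without control 1 and 1821 without KO 2, and the number among the 27 to between 0 and 1. The median of the 27 ranged from -0.18 to 0.04 over those fits and was -0.30 after quantile normalization. Over those fits 2 to 6 of the 27 lay above every control and 3 to 9 below, where 7.45% to 27% and 11% to 18% of all tested genes did. The 6 above and 9 below without control 1 stand beside 25.2% and 17.9% of all tested genes, and the 9 below without KO 2 beside 18%. Without control 2 and 3, 5 lay above and 9 below (12.6% and 27% of all tested genes), and without KO 1 and 3, 7 above and 3 below (25.1% and 29.1%). Without KO 1 and 3, differences turned for Scd2 (1.73), Acaca (-0.17), Fasn (0.49), Insig2 (0.025), Lss (0.024) and Mvd (0.10). Without control 2 and 3 they turned for Srebf1 (-0.31), Cyp51 (0.064), Tm7sf2 (-0.29), Sc5d (0.50), Insig1 (0.29), Elovl6 (-0.70), Hmgcs1 (0.14), Fdft1 (0.25), Abcg1 (-0.051), Scap (-0.37) and Mvk (-0.10). With limma-voom they turned for Scd2 (0.31) and Mvd (0.025), and after quantile normalization for Mvk (-0.046), Tm7sf2 (-0.12), Srebf1 (-0.047), Acaca (-0.20) and Elovl6 (-0.30). With 1 library left out, ranges crossing 0 were -0.24 to 0.39 for Elovl6, -0.077 to 0.23 for Acaca, -0.23 to 0.058 for Fdft1, -0.052 to 0.044 for Mvd, -0.95 to 0.40 for Scd2, -0.54 to 0.16 for Fasn, -0.25 to 0.17 for Srebf2, -0.26 to 0.10 for Insig1, -0.012 to 0.37 for Srebf1 and -0.83 to 0.036 for Sc5d. The cause was not tested. With the replicate block, 0 genes were called and the median of the 27 stayed at -0.07. Same-numbered libraries deviated together with r of 0.11, 0.02 and 0.02, and control 2 correlated best with KO 3 (0.14), so the numbers were not taken to pair them. Depth limits genes near 1 FPKM most in KO 1 and KO 3, where 3 reads in a gene of 1 kb equal 0.877 and 0.998 FPKM, against 0.200 to 0.253 in the other 4 libraries.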
